A study of Mus musculus with 25 samples.

Results

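S37F, the replacement of serine 37 of β-catenin by phenylalanine, was compared with the other 3 substitutions sequenced at the same codon, S37A, S37C and S37Y. The members were all 5 clones with a codon 37 mutation among 25 libraries, taken by their labels: S37F clones H2 and G1 on one side, and S37A clone A10, S37C clone G12 and S37Y clone A5 on the other. All are lines of E14, a feeder-free mouse embryonic stem (ES) cell line, in which 1 *Ctnnb1* allele was first targeted with a puroΔTK selection cassette and then exchanged for a mutant allele by homology-directed repair, so that each line is heterozygous. They were grown in serum with leukemia inhibitory factor and carry a 0 uM Chiron, 48 h label, that is, no CHIR99021. Each line is a single clone with 1 library. S37A, S37C and S37Y had 1 clone each, so clone and mutation cannot be told apart for them, and nothing in the labels says that the 2 S37F clones came from separate editing experiments. P-values therefore measure the spread between clones, of whatever origin. The other clones, used for the spread or as reference, carry T41A (2 clones), T41I (2), T41N, T41S, S45F (2), S45P and S45C, and 10 libraries are unedited E14 cells, which went through no editing, after 48 h with 0, 2.5, 5, 7.5 or 10 uM CHIR99021.

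β-Catenin carries the Wnt signal to TCF/LEF transcription factors in the nucleus. Without a signal, casein kinase 1 phosphorylates serine 45, and GSK3 then phosphorylates threonine 41, serine 37 and serine 33. The ubiquitin ligase β-TRCP binds the stretch around serines 33 and 37 in its phosphorylated form and marks the protein for degradation, and none of the 4 residues put in place of serine 37 offers the same phosphorylation site. The mutated codon lies in exon 3 of *Ctnnb1*. Codons 31 to 48 of the unedited allele (transcript ENSMUST00000007130.14, + strand, GRCm38 chr9:120950599-120950652) are shown to place it, with codon 37 (chr9:120950617-120950619) in capitals.
Ctnnb1 codons 31 to 48: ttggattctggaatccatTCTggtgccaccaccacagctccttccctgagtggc
Levels of *Ctnnb1* transcripts were 455 and 504 CPM (counts scaled to a common library total) in S37F clones H2 and G1, against 453 in S37A, 484 in S37C and 433 in S37Y. The ranges overlapped (log2 fold change 0.08 ± 0.12 (SE), edgeR adjusted p = 0.764).

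RNA was counted by unique molecular identifiers at transcript 3′ ends. The 5 libraries held 977644 (S37F clone G1) to 2025273 counts (S37Y), so that a count of 0 allows up to 3 counts, or 1.48 to 3.07 CPM, which covers counting error only. Mitochondrial genes took 1.53% and 1.62% of the counts in S37F against 2.22%, 2.20% and 1.79% in S37A, S37C and S37Y. *Sox2*, *Zfp42*, *Sall4*, *Utf1*, *Dppa5a* and *Nanog* were at 278 CPM or more in all 5 clones, and *Pou5f1* was at 17.9 to 28.8 CPM. Of defining markers of other cells, *Plac1* (trophoblast), *Neurog2* (neural), *Postn* and *Lum* (fibroblast) and *Cer1* had no count in any of the 5. Other genes of these lists did: the summed level was 179 to 373 CPM for 8 trophoblast, 23.8 to 56.3 for 10 neural and 546 to 657 for 8 fibroblast genes. No autosome or X chromosome of the 5 clones stood out: the largest median shift on the log2 scale was 0.118, for chromosome 15 of S37C, over genes at a mean of 20 CPM or more, and 0.139 at 50 CPM or more. On the Y chromosome, with only 2 genes, S37F H2, S37C and S37Y were shifted by -0.58, -0.78 and -0.57. The 2 S37F clones were not alike in every respect: over 4113 genes at 50 CPM or more, 239 differed by more than 1.5-fold between H2 and G1, against 60 between S37A and S37C, 140 between S37A and S37Y and 119 between S37C and S37Y. Between an S37F clone and one of the other 3 there were 307 to 568 such genes. These are differences of single libraries, and G1 was also the shallowest. With all 5 libraries thinned to its depth, the numbers were 294 for H2 and G1, 98 to 211 among the other 3 and 396 to 649 across.

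Both S37F clones had higher levels of *Chac1* and *Trib3*, which were 2 of 9 listed ATF4 and amino acid stress genes, and lower levels of 9 of 20 listed genes of the endoplasmic reticulum (ER), 5 of 16 SR and CLK splicing genes and 5 of 17 immediate early genes and SRF targets. The ER, splicing and immediate early lists were made after values were seen, so their counts describe these data and cannot be set against the share over all genes. In edgeR's quasi-likelihood test, 196 of 10390 genes passed an adjusted p of 0.05 (1.89% of those tested), 53 higher in S37F (0.51%) and 143 lower (1.38%). For all 196, both S37F clones lay on the same side of all 3 others. A fit without 1 clone could therefore hardly reverse the sign of any, and a kept sign is no separate support. Over all genes tested, both S37F clones lay above the others for 16.9% and below them for 19.6%. In 165 of the 196 the S37F clones were within 1.5-fold of each other. The number of calls rests on few clones. It was 9 without S37F clone H2, 47 without clone G1, 60 without S37A, 98 without S37C, 28 without S37Y and 0 without both G1 and S37Y, the shallowest and deepest libraries (edgeR; DESeq2 called 74 with all clones, and 1898 genes had an unadjusted p under 0.05). All 196 kept their sign in each of the 5 fits without 1 clone, but *Nab2* and *Sgk1* were the only genes called in all 5. An exact permutation test of 2 clones against 3 cannot give a p under 0.1.

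**Figure D1:**
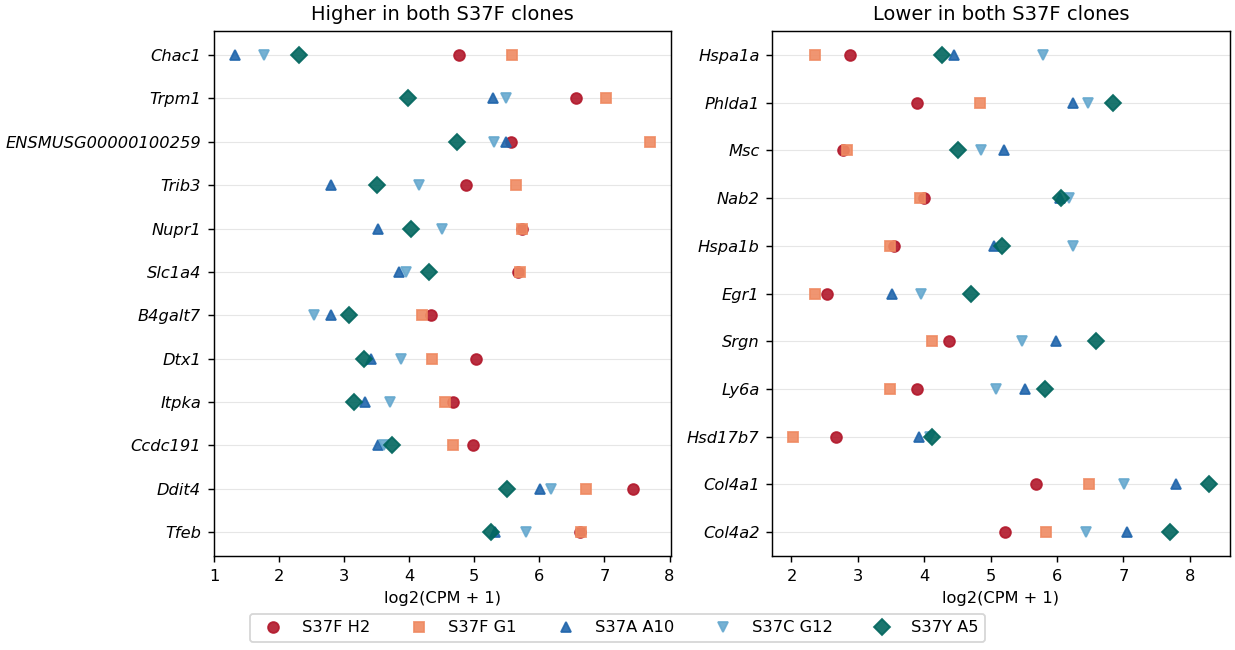
Levels of the 12 genes most raised and of 11 of the 12 most lowered in S37F, as log2(CPM + 1) on the horizontal axis, with 1 symbol per clone. Red and orange symbols (S37F H2 and G1) lie to the right of all others in the left panel and to the left of all others in the right panel; for ENSMUSG00000100259 clone H2 (46.4 CPM) is almost level with S37A (43.9 CPM).

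The largest rise was that of *Chac1*, a glutathione-degrading enzyme that the transcription factor ATF4 turns on under amino acid or ER stress. It stood at 26.2 CPM in S37F H2 and 47.1 in G1, against 1.49 in S37A, 2.40 in S37C and 3.95 in S37Y. The 3 other clones were close to the limit that a count of 0 allows, and both S37F clones were well above it (log2 fold change 3.61 ± 0.66 (SE), adjusted p = 0.0107). *Trib3*, a pseudokinase that restrains ATF4, was at 28.3 and 49.1 CPM against 5.96, 16.8 and 10.4 (1.77 ± 0.42 (SE), adjusted p = 0.0364). *Slc1a4*, a transporter of small neutral amino acids, was at 50.2 and 51.1 CPM against 13.4, 14.4 and 18.8, and *Nupr1*, a stress-induced chromatin protein, at 52.3 and 52.2 against 10.4, 21.6 and 15.3. For these 2 genes the S37F clones were almost level. *Ddit4*, an inhibitor of mTORC1, was at 172 and 104 CPM against 63.3, 71.1 and 44.4. *Slc3a2*, the heavy chain of several amino acid transporters, was called as well (368 and 461 against 232, 269 and 286 CPM) and was picked out after its values were seen.

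The rise did not extend to the whole ATF4 program. Of 9 tested genes of the list of ATF4 targets, 2 were higher (*Chac1* and *Trib3*) and none lower, with a median log2 fold change of 0.61 against -0.01 over all genes. *Asns*, asparagine synthetase, was at 1005 and 966 CPM against 1056, 957 and 1243, and *Psat1* and *Phgdh*, enzymes of serine synthesis, had overlapping ranges. *Ddit3*, which encodes CHOP, was at 24.0 and 30.7 CPM against 11.9, 10.4 and 9.88 and did not pass (1.33 ± 0.39 (SE), adjusted p = 0.0746). *Atf4* itself was set apart by 1 clone: 348 CPM in G1, but 175 in H2, within the range of 121 to 211 in the other 3.

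*Trpm1*, a cation channel, was at 94.0 and 129 CPM against 38.0, 44.0 and 14.8 (1.84 ± 0.35 (SE), adjusted p = 0.0114). The microRNA gene *Mir211* lies within it on the same strand. *Tfeb*, a master regulator of lysosome genes, was at 97.2 and 98.2 CPM against 38.7, 54.4 and 37.0 (1.20 ± 0.22 (SE), adjusted p = 0.0107). On a list of 14 tested genes of the TFEB and TFE3 network, made after values were seen, *Tfeb* and *Trpm1* were the ones called, and the median was 0.41. *Itpka* (inositol trisphosphate kinase), *B4galt7* (a galactosyltransferase), *Dtx1* (a regulator of Notch), and *Ccdc191* rose by 1.30 to 1.56 on the log2 scale. The gene ENSMUSG00000100259, for which no symbol was found, was set apart by G1: 208 CPM there, 46.4 in H2 and 25.7 to 43.9 in the others.

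Further genes higher in S37F, named after their values were seen, include single repair factors, for which no list of repair genes was made. *Rtel1*, a helicase of telomeres, was at 255 and 264 CPM against 160, 145 and 99.2, *Rad50* at 71.0 and 51.1 against 34.2, 33.6 and 22.7, and *Mre11a*, its partner in the MRN complex, at 115 and 96.1 against 69.2, 48.0 and 63.2. *Clk2*, a kinase that phosphorylates SR proteins, had the lowest adjusted p of all raised genes, 0.00439 (85.4 and 71.6 CPM against 35.0, 40.8 and 33.1; 1.15 ± 0.18 (SE)). *Bbc3*, which encodes the cell death protein PUMA, was the only one of 10 p53 targets called (40.6 and 65.5 against 26.8, 24.0 and 26.2 CPM). The ribosomal protein gene *Rpl13a* was at 969 and 979 CPM against 620, 594 and 546; of 76 ribosomal protein genes, listed after values were seen, it and *Rps24* were called and the median was 0.10.

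Chaperones of the ER fold secreted and membrane proteins. *Hspa5*, which encodes BiP, the main Hsp70 chaperone of the ER, was at 224 CPM in S37F H2 and 203 in G1, against 715 in S37A, 675 in S37C and 672 in S37Y. The gap between the sets was over 3-fold and the spread within each small (213 ± 15.3 against 687 ± 23.9 CPM (SD, n = 2 and 3); log2 fold change -1.67 ± 0.28 (SE), adjusted p = 0.00572). *Hsp90b1*, the ER member of the Hsp90 family, was at 518 and 478 CPM against 922, 862 and 994 (-0.88 ± 0.16 (SE), adjusted p = 0.0108). *Calr*, calreticulin, was at 391 and 358 CPM against 703, 657 and 706 (-0.87 ± 0.16 (SE), adjusted p = 0.0108). *Manf*, a secreted ER stress protein, stood at 166 and 140 CPM against 338, 324 and 353, and *Xbp1*, a transcription factor of the unfolded protein response, at 52.8 and 44.0 against 121, 125 and 122. In each of these genes the other 3 clones lay close together and the S37F clones well below. Of 20 tested genes of the ER list, which was made after values were seen, 9 were lower and none higher (*Dnajb11*, *Sel1l*, *Creld2* and *Pdia6* are the others), 16 had both S37F clones below the rest, and the median log2 fold change was -0.68. The exceptions were *Herpud1*, *Ddit3* and *Atf6*, with both S37F clones above the others and no call (adjusted p = 0.0894, 0.0746 and 0.654), and *Sdf2l1*, for which the ranges overlapped. Summed over the list, levels were 3152 and 3037 CPM in S37F against 5134, 5039 and 5297.

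The promoters of several of these genes share a sequence. The ER stress response element, through which ATF6 and NF-Y act, reads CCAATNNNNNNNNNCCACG, and it was searched on both strands of the window from 250 bases before to 50 bases after the RefSeq start site (GRCm38.p6), which was found for 8017 of the 10390 tested genes. It occurred in 15 of these (0.187%). Among genes lower in S37F, 6 of 111 with a window held it (5.41%), among higher genes 0 of 40, and on the ER list 7 of 17 (41.2%), 5 of them called. The motif was chosen after values were seen, and a match is a description of the letters, not of a bound site. The 5 called ER genes are shown with the match in capitals.
Hspa5 (chr2:34771840-34772139, + strand): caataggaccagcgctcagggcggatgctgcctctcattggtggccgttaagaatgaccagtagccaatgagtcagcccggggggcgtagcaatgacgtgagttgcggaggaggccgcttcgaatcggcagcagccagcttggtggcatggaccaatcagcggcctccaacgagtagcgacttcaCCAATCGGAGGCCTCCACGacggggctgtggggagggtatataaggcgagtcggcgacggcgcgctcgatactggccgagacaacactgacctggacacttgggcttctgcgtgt
Hsp90b1 (chr10:86705395-86705694, - strand): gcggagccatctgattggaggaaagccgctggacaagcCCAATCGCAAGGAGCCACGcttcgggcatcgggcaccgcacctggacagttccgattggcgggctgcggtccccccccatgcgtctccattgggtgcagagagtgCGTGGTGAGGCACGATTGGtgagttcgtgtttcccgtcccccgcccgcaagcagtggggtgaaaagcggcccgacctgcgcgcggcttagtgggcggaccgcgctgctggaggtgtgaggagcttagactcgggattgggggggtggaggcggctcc
Calr (chr8:84846882-84847181, - strand): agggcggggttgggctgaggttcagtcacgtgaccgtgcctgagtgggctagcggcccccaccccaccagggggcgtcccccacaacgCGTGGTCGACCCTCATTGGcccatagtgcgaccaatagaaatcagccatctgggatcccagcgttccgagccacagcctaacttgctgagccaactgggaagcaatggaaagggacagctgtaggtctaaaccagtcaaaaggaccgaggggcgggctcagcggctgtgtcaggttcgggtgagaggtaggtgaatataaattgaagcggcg
Pdia6 (chr12:17266339-17266638, + strand): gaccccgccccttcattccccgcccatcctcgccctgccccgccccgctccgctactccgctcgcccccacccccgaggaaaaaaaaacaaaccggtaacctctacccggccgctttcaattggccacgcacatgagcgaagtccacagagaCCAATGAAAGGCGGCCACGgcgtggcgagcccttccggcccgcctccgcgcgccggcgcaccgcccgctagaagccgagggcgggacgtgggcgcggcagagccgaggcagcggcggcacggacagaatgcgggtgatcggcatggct
Creld2 (chr15:88819396-88819695, + strand): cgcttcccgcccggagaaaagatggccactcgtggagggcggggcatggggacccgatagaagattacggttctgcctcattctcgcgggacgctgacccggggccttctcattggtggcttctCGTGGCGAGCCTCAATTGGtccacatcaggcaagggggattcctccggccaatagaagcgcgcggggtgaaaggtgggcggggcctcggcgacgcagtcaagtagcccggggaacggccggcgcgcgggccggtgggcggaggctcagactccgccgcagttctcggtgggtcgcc
The match began 65 bases before the start site in *Hspa5*, 98 in *Pdia6*, 126 in *Creld2* and 162 in *Calr*, with the reverse strand read in *Calr* and *Creld2*, and *Hsp90b1* held 2 matches. The sixth lower gene, *Zfp57*, an imprint regulator, is not on the ER list (165 and 195 CPM against 288, 297 and 272). Of the other 9 genes with a match, *Dnajc3* and *Canx* had both S37F clones below the others without a call (adjusted p = 0.0663 and 0.302), and *Syvn1*, *Alg12*, *Pan2*, *Derl3*, *Adcy3*, *Hnrnpa3* and *Acacb* had overlapping ranges. The TCF/LEF motif CTTTGA was held by 6 of 40 higher (15%) and 13 of 111 lower genes (11.7%), against 13.6% of all windows.

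**Figure D2:**
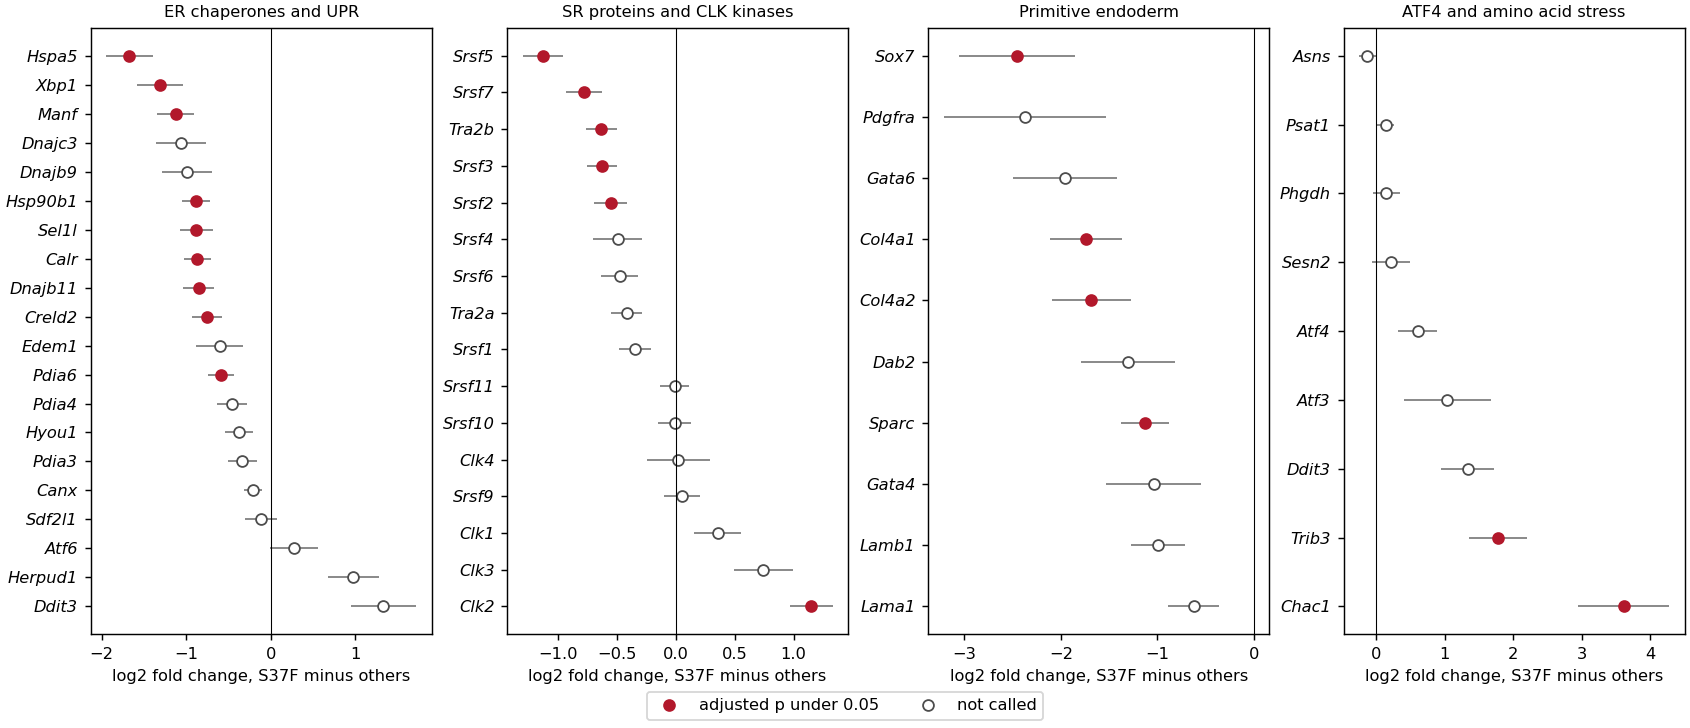
Log2 fold change, S37F minus S37A, S37C and S37Y, with its standard error (bars), for the tested genes of 4 lists; filled circles passed an adjusted p of 0.05. In the ER panel 9 of 20 genes are filled and all of those lie below 0; in the ATF4 panel only *Trib3* and *Chac1* are filled, both above 0.

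Cytosolic chaperones were touched in part. *Hspa1a* and *Hspa1b*, the stress-inducible Hsp70 genes, were at 6.41 and 4.09, and at 10.7 and 10.2 CPM, in S37F. In S37A, S37C and S37Y, *Hspa1a* was at 20.8, 54.4 and 18.3 CPM and *Hspa1b* at 32.0, 74.3 and 35.1. Both passed (*Hspa1a* -2.40 ± 0.61 (SE), adjusted p = 0.0446, and *Hspa1b* -2.11 ± 0.52 (SE), adjusted p = 0.0404), and for both S37C was over 2-fold above every other codon 37 clone. The 2 genes are near-identical and reads may have been split between them. *Hsph1* and *Dnajb1* were lower as well, which makes 4 of 14 cytosolic heat shock genes lower and none higher (median -0.14; list made after values were seen).

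Splicing factors of the SR family bind exons and enhance their use. *Srsf5* was at 206 and 207 CPM in S37F against 435, 449 and 477, with almost no spread between the S37F clones (-1.13 ± 0.17 (SE), adjusted p = 0.00439). *Srsf7* was at 455 and 529 CPM against 855, 835 and 853 (-0.78 ± 0.16 (SE), adjusted p = 0.0173). *Srsf3*, *Srsf2* and *Tra2b* were lower by 0.55 to 0.63 on the log2 scale. Of 16 SR and CLK genes, listed after values were seen, 5 were lower and 1, *Clk2*, higher, with a median of -0.38. The summed level was 3844 and 3895 CPM in S37F and 5508, 5430 and 5499 in the others. Outside the list, *Scaf4* and *Ppp1r10*, which act on RNA polymerase II during transcript termination, fell by 1.26 and 1.37 on the log2 scale, and *Spen*, an RNA-binding corepressor, was at 146 and 172 CPM against 346, 372 and 396 (-1.23 ± 0.17 (SE), adjusted p = 0.00148).

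Some genes that respond to growth factors and serum were lower. *Nab2*, a corepressor that Egr proteins induce and that restrains them, was at 14.9 CPM in H2 and 14.3 in G1 against 64.8, 71.1 and 65.7. It had the lowest adjusted p of all genes (-2.17 ± 0.27 (SE), adjusted p = 0.00106), and *Stat6* and *Nemp1* overlap it on the opposite strand. *Sgk1*, a kinase that glucocorticoids and serum induce, was at 201 and 199 CPM against 424, 409 and 421 (-1.05 ± 0.14 (SE), adjusted p = 0.00113). *Srf*, serum response factor, was at 24.0 and 25.6 CPM against 61.8, 63.1 and 71.6, *Egr1* at 4.80 and 4.09 against 10.4, 14.4 and 25.2, and *Phlda1* at 13.9 and 27.6 against 74.4, 87.1 and 114. The groups did not overlap in any of these, though *Egr1* rests on few counts and varied widely among the other 3 clones. Of 17 tested genes in a list of immediate early genes and SRF targets, made after values were seen, 5 were lower (with *Plaur*) and none higher (median -0.48). Of 7 FGF-ERK response genes, *Egr1* and *Spry4* were lower (*Spry4* 89.7 and 143 CPM against 234, 245 and 289; median of the list -0.59). *Dusp6* (59.3 and 116 against 123, 129 and 185) and *Spry2* (444 and 656 against 671, 746 and 806) lay below the others without passing, and in both of them, as in *Spry4*, G1 was the nearer clone. *Etv5* had overlapping ranges, as had *Dusp4* (19.8 and 17.4 CPM against 8.93, 6.39 and 19.3), the only gene of the list with a positive log2 fold change. *Smad7*, the inhibitory Smad that TGF-β and BMP signals induce, was at 164 and 177 CPM against 274, 320 and 391, while *Lefty1* (40.6 and 32.7 against 14.1, 17.6 and 10.4) and *Lefty2*, targets of Nodal, lay above the others without passing (adjusted p = 0.0775 and 0.0697).

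The promoter of *Srf* (chr17:46556113-46556412, - strand, GRCm38.p6) is shown because it holds the CArG box, the sequence that SRF binds, with the 2 matches in capitals.
Srf: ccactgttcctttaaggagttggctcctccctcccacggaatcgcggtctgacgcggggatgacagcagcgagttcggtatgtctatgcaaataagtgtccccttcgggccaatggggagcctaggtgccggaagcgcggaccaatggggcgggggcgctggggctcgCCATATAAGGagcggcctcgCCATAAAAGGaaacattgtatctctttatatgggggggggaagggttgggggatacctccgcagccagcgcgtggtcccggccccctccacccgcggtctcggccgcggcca
It was the only lower gene of 111 with that motif (0.901%), which 118 of all windows held (1.47%).

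No direct target of β-catenin on the lists was called. The study selected its 10 target genes for a high correlation of their levels with CHIR99021 dose. That all 10 were higher in unedited cells with 7.5 or 10 uM CHIR99021 than without was therefore largely fixed in advance. None passed between S37F and the other codon 37 clones (median log2 fold change -0.18). *Notum*, a secreted Wnt antagonist, was at 52.8 and 56.3 CPM in S37F against 35.0, 29.6 and 29.6 (0.80 ± 0.24 (SE), adjusted p = 0.0775). *Sp5* (85.9 and 128 against 76.7, 67.9 and 61.7) and *Cdx1* (278 and 334 against 271, 253 and 262) also lay above. *Axin2*, the feedback inhibitor, lay below with 66.7 and 63.4 CPM against 83.4, 86.3 and 87.4 (-0.38 ± 0.17 (SE), adjusted p = 0.246), as did *Tbx3* and *Znrf3*. *Nkd1*, *Etv4*, *Gbx2* and *Bmp4* overlapped. Of 9 other Wnt targets none was called (median 0.18); *Lef1* was at 31.0 and 24.5 CPM against 14.1, 16.8 and 17.8, and *Dkk1* at 2.14 and 1.02 against 7.44, 7.19 and 20.2. *Sfrp2*, a secreted Wnt inhibitor named after its values were seen, was higher (30.4 and 26.6 against 14.1, 13.6 and 12.8 CPM; adjusted p = 0.0295). None of 9 destruction complex genes was called.

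Among pluripotency genes, *Nanog* was lower in S37F, with 326 and 278 CPM against 461, 502 and 512 (-0.69 ± 0.13 (SE), adjusted p = 0.0108). *Nr0b1*, a repressor that binds Oct4, was at 278 and 260 against 378, 437 and 433, and *Tet2*, which oxidises methylcytosine, at 188 and 177 against 305, 314 and 258. These were 3 of 12 naive genes. *Klf2* lay above in both S37F clones (707 and 664 against 534, 571 and 437; adjusted p = 0.139), and *Klf4* and *Esrrb* overlapped. *Foxd3*, a further transcription factor of ES cells, fell by 1.37 on the log2 scale. No gene was called among 8 core, 6 primed, 4 mesendoderm, 8 LIF-STAT3, 6 BMP, 12 hypoxia, 10 cholesterol, 7 actin, 5 cadherin and EMT, 11 imprinted, 3 Y chromosome, 4 trophoblast, 3 neural, 2 2-cell-like genes, or the 1 tested gene each of the Cdx and Hox and the fibroblast lists.

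Of the markers of primitive endoderm, the cell layer next to the epiblast, 4 of 10 were lower, and here the 3 comparison clones were not alike. *Col4a1* was at 50.2 and 88.0 CPM in S37F against 220 in S37A, 128 in S37C and 311 in S37Y, and *Col4a2* at 36.3 and 56.3 against 132, 85.5 and 206 (adjusted p = 0.0221 and 0.0386; the genes overlap on opposite strands). *Sparc* was at 341 and 578 CPM against 1002, 616 and 1374, so that G1 was almost level with S37C. *Sox7*, at 2.67 and 1.02 against 10.4, 9.59 and 14.8 CPM, was the fourth gene called (none was higher, 7 of 10 had both S37F clones below, and the median was -1.50). *Gata6*, a defining factor of these cells, was at 10.7 and 13.3 CPM against 26.1, 19.2 and 85.4 and was not called (adjusted p = 0.0642). Summed over the list, levels were 743 and 999 CPM in S37F and 1867, 1151 and 2673 in S37A, S37C and S37Y, and 539 to 3263 in the other 10 clones. In bulk RNA, fewer cells of a type and less RNA per cell cannot be told apart, and the part of such cells in the other differences was not tested.

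Other genes among the largest decreases were *Msc*, a bHLH repressor (5.87 and 6.14 CPM against 35.7, 28.0 and 21.7), *Srgn*, a proteoglycan core protein (19.8 and 16.4 against 62.5, 43.2 and 95.3), and *Ly6a*, which encodes the surface protein Sca-1 (13.9 and 10.2 against 44.7, 32.8 and 55.3). *Hsd17b7*, an enzyme of cholesterol synthesis (5.34 and 3.07 CPM against 14.1, 16.0 and 16.3), rests on few counts in S37F. That no S37F clone overlapped the others in these 4 was a condition for naming them.

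**Figure D3:**
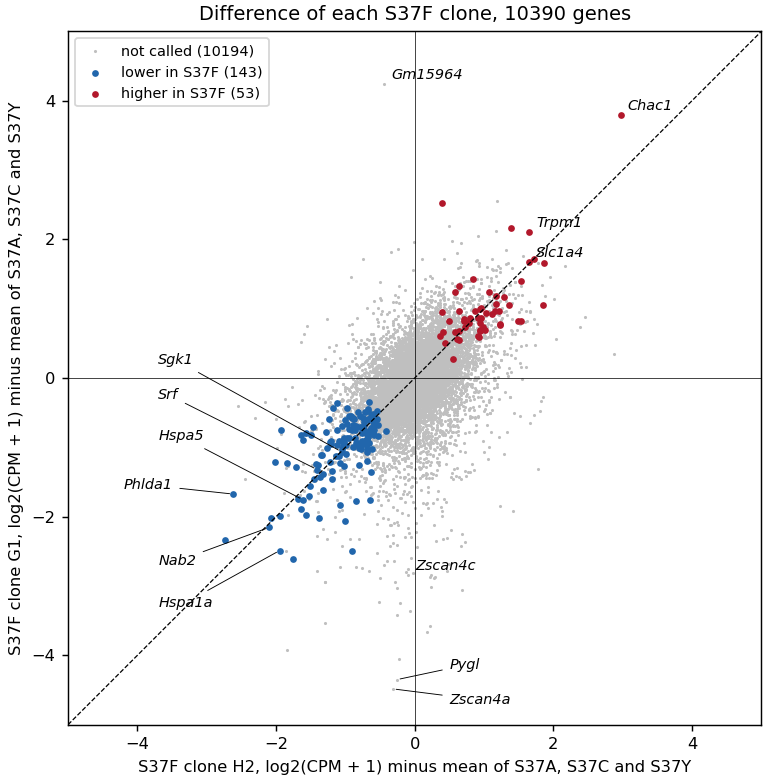
Each of 10390 genes by its difference in S37F clone H2 (horizontal) and clone G1 (vertical) from the mean of S37A, S37C and S37Y, in log2(CPM + 1); the dashed line marks equal differences. The 53 higher (red) and 143 lower (blue) genes lie in the upper right and lower left, while *Zscan4a*, *Zscan4c* and *Pygl* are low and *Gm15964* high in clone G1 only.

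Some genes were set apart by 1 S37F clone. Among the 196 called genes, 8 had an S37F clone within 1.2-fold of the nearest other clone, so that they rest mainly on the other S37F clone. The near clone was G1 for *Sparc*, *Tsc22d1*, *Jmjd1c*, *Ahnak*, *Gm15459* and *Rps24*, and H2 for *Eif3b* and ENSMUSG00000100259. An example was *Jmjd1c*, a histone demethylase relative, with 66.7 CPM in H2 but 114 in G1, against 159, 123 and 159. In the test of G1 against H2, 1 gene passed (0.00962% of 10390), ENSMUSG00000100259 (2.17 ± 0.29 on the log2 scale (SE), adjusted p = 0.0378), with 540 genes at an unadjusted p under 0.05 and none called by DESeq2. With 1 library on each side, so short a list does not show that the clones are alike.

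Each clone was also tested against the other 4, in a fit in which each codon 37 clone stood alone and the spread came from the codon 41 and 45 clones. For H2 no gene passed (edgeR, 0% of 10390; 998 at an unadjusted p under 0.05; DESeq2 called 1). For G1, 2 passed (0.0192%; DESeq2 called 0): ENSMUSG00000100259 and *Gm15964*, a transcript on chromosome 16 with 24.5 CPM in G1, 1.49 in S37A and 0 in the other 3. Across the 10 other clones *Gm15964* reached at most 3.02 CPM. For S37A and S37C none passed (edgeR, 0% each; 392 and 385 at an unadjusted p under 0.05; DESeq2 called 0 in both). For S37Y, 4 passed (0.0385%; DESeq2 called 3), all higher in S37Y. *Peg10*, an imprinted gene, was at 355 CPM there and 105 to 195 in the other 4 (1.46 ± 0.15 (SE), adjusted p = 0.00210), and *Gata6* at 85.4 against 10.7 to 26.1 (2.37 ± 0.37 (SE), adjusted p = 0.0408). *Sparc* and *Lrpap1* were the others. *Grb10*, also imprinted, was at 12.3 CPM in S37Y and 83.9 to 105 in the rest without passing (adjusted p = 0.0623).

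By size alone, with no test, G1, the shallowest library, had the most genes that stood apart. Of 7759 genes at 20 CPM or more in some clone, 51 in G1 lay more than 2-fold below and 4 more than 2-fold above all other codon 37 clones. In H2 there were 6 low and 5 high, in S37A 8 and 4, in S37C 1 and 4, and in S37Y 5 and 9. Among those low in G1 are *Zscan4* genes, which mark the 2-cell-like state, a rare state of ES cells that resembles the early embryo. *Zscan4a* was at 1.02 CPM in G1 (1 count) and at 35.2 in H2, 55.1 in S37A, 51.2 in S37C and 30.6 in S37Y. *Zscan4c* was at 3.07 CPM in G1 against 26.2, 31.3, 34.4 and 20.7. *Zscan4d* was lowest in G1 too, but by less than 2-fold, with 7.16 CPM against 29.4, 17.9, 14.4 and 11.4. These genes form a family of near-identical copies, so counts of single members are uncertain, and none passed the test (adjusted p = 0.443 for *Zscan4a*). *Zscan4a* was at 0.776 CPM in T41I clone A6 and 37.2 in B9, at 18.0 and 75.8 in T41A, at 1.13 to 7.54 in the other clones outside codon 37 and at 0 to 3.19 in the unedited libraries. *Pygl*, glycogen phosphorylase of liver, had no count in G1, which allows up to 3.07 CPM, against 16.0 to 20.8 in the others, and was at 0.776 to 14.9 in the clones outside codon 37.

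H2 had its own pattern. *Bhlhe40* and *Egln3*, both induced by hypoxia, were at 101 and 38.4 CPM in H2, against 27.2 to 48.8 and 15.2 to 18.6 in the other 4. In the unedited libraries both were higher still, at 225 to 303 and 49.0 to 121 CPM. The summed level of 12 hypoxia and glycolysis genes was 9521 CPM in H2 and 6644 in G1, and 5251 to 7528 in the other 13 clones, so that the 2 S37F clones fell on different sides of S37A (6716), S37C (6923) and S37Y (7528). The sum rests largely on *Aldoa* and *Ldha* (3320 and 3954 CPM in H2). These, *Eno1* and *Bnip3* were highest in H2 of the 5 clones, but *Ankrd37* (14.4 CPM in H2, 26.1 in S37A) and *Ero1l* (29.4 in H2, 36.5 in S37Y) were not. *Myc* was low in H2 alone (37.4 CPM against 77.4 to 121, with G1 at 88.0). *Trib1* (5.34 CPM against 13.3 in G1 and 19.2 to 25.3), *Ccn1* (14.9 against 33.8 and 56.6 to 66.7) and *Fgfbp1* (12.3 against 34.8 and 42.4 to 51.4) were lowest in H2, with G1 between it and the others. None of *Bhlhe40*, *Egln3*, *Myc*, *Trib1*, *Ccn1* and *Fgfbp1* passed in the test of H2 against the other 4, though *Trib1* was called in the main comparison (adjusted p = 0.0477). In S37C, *Arl5c* was high (37.6 CPM against 5.34 to 10.4), and in S37A *mt-Nd5* (427 against 134 to 212) and *Arid5b* (98.3 against 28.8 to 39.9), none of which passed.

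**Figure D4:**
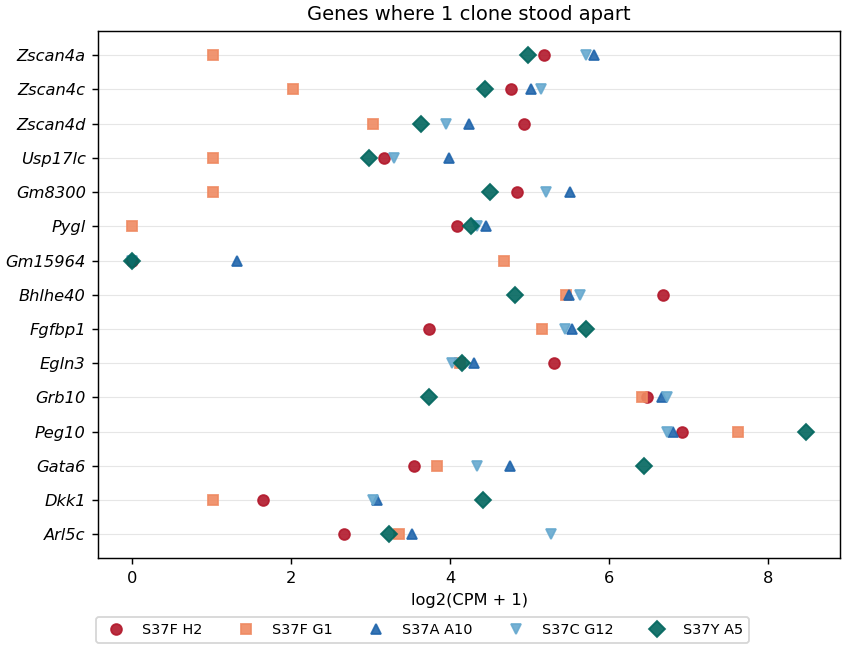
Levels, as log2(CPM + 1), of 15 genes with 1 codon 37 clone above or below the rest, with 1 symbol per clone. Clone G1 (orange squares) is far to the left for *Zscan4a* and *Pygl* and alone on the right for *Gm15964*, and S37Y (green diamonds) is on the left for *Grb10* and on the right for *Peg10* and *Gata6*.

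The 196 genes were then followed in the libraries outside codon 37, which took no part in their choice other than through the spread. For each library, the share of the 196 was counted for which its log2(CPM + 1) was nearer to the S37F mean than to the mean of the other 3. T41I clone B9 was nearer S37F for 18.4%, T41A clones C1 and E6 for 8.16% each, but T41I clone A6, with the same substitution as B9, for 75%. Over all tested genes the shares were 39.9% for B9, 35.6% and 33.7% for T41A and 59.4% for A6. S45F clones C1 and D9 were nearer S37F for 72.4% and 70.4% (54.6% and 56% of all genes), S45P for 56.1%, S45C for 45.4%, T41S for 47.4% and T41N for 36.7%. For these last 4 the shares over all genes were 52.6%, 48.5%, 45.8% and 47.4%, so that S45P, S45C and T41S lay close to them and T41N below. The 10 unedited libraries were nearer S37F for 78.1% to 84.2%, whatever the dose (53.4% to 55.5% of all genes). This held mainly for the lower genes: 122 to 129 of the 143 lower genes were nearer S37F, but 28 to 37 of the 53 higher ones.

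**Figure D5:**
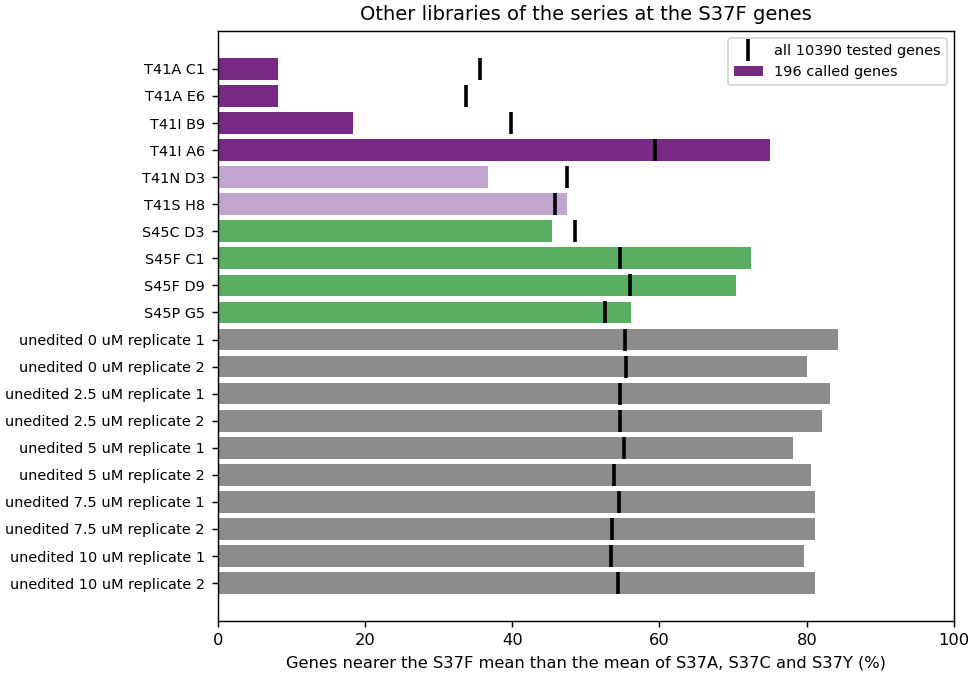
Share of the 196 called genes (bars) and of all 10390 tested genes (black ticks) whose level is nearer to the S37F mean than to the mean of S37A, S37C and S37Y, for each library outside codon 37. The bar of T41I clone A6 reaches 75%, that of T41I clone B9 18.4%, and those of the unedited libraries lie between 78.1% and 84.2%.

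The 2 T41I clones differed from each other at these genes in the direction in which S37F differed from S37A, S37C and S37Y. *Hspa5* was at 216 CPM in T41I A6 and 678 in B9; T41A had 696 and 745, S45F 166 and 221, and untreated unedited cells 204 and 257. *Chac1* was at 54.3 CPM in A6 and 5.51 in B9, at 5.99 and 3.72 in T41A and at 58.4 and 43.1 in S45F, but at 5.98 and 4.25 in untreated unedited cells, level with T41A. The summed ER list was at 3224 CPM in A6 and 5164 in B9, at 5320 and 5470 in T41A, 2844 and 3302 in S45F and 2816 to 3504 in all unedited libraries. The SR and CLK list was at 4404 in A6 and 6233 in B9. A6 was then set against B9, a comparison of 1 library with 1 library that was chosen after values were seen, with the spread taken from the S37F, other codon 37, T41A and S45F clones, so that its p-values speak of these libraries and not of the substitution. In it 11 genes passed (0.106%; 6 higher, 0.0577%, and 5 lower, 0.0481%; edgeR, with DESeq2 also 11). Of these, 4 were among the 196, which are 1.89% of all genes tested. The spread is largely shared with the main test, which favours such an overlap. *Hspa5* (-1.64 ± 0.20 (SE)), *Manf* and *Xbp1* were lower and *Chac1* higher in A6, each in the direction of S37F. The others included *Mt1*, *Mt2* and *Lefty1*, higher in A6, *Arid4b*, lower in A6, and *Ddx3y* and *Eif2s3y* on the Y chromosome, which were at 125 and 78.3 CPM in A6 and at 0.689 each in B9. Of the 143 genes lower in S37F, 137 were lower in A6 than in B9 (median -0.55), and of the 53 higher ones 49 were higher (median 0.45), against a median of -0.02 over all tested genes. The spread in the main test includes this pair; with A6 left out of the fit 479 genes passed, all 196 among them.

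Both S37F clones lay beyond all 13 other clones for 56 of the 196 called genes, 13 higher and 43 lower. The 13 include S37A, S37C and S37Y, which S37F overlapped in no called gene. Part of the condition was thus met by the choice of genes. Over all 10390 genes tested it held for 539 (5.19%), all of them among the 3797 genes with no overlap within codon 37. *Sgk1* was one of the 56 called genes, with 288 CPM in A6, 361 in B9 and 231 to 488 in the other clones outside codon 37, though unedited cells at 0 uM were lower still (126 and 112 CPM). *Srf*, *Srsf5*, *Egr1*, *Yy1* and *Txnrd1* also belonged to the 43, and *Tfeb*, *Trpm1*, *Nupr1*, *Itpka*, *Ccdc191*, *Rtel1* and *Rpl13a* to the 13. *Nab2* did not: T41N, the shallowest clone library (495616 counts), was at 14.1 CPM, almost level with S37F (14.9 and 14.3). Untreated unedited cells, which are not among the 13, were at 10.9 and 11.7 CPM.

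In a pair of reference contrasts, no codon 37 library was compared. The first, at codon 41, was tested in the same fit as S37F and shares its estimate of the spread. That alone favours calls of the same genes. The second was fitted on the unedited libraries only. T41A and T41I against T41N and T41S gave 2142 genes (20.6%; 8.98% higher and 11.6% lower). Of the 143 genes lower in S37F, 41 were higher (28.7%) and 19 lower (13.3%) there, and of the 53 higher ones 6 were higher and 5 lower. *Spry4*, *Smad7*, *Nr0b1*, *Tet2*, *Nanog* and *Spen*, all lower in S37F, were higher in T41A and T41I, while *Phlda1*, *Srf* and *Col4a1* were lower. CHIR99021 at 7.5 or 10 uM against 0 uM changed 1687 of 10674 genes (15.8%; 7.35% higher and 8.45% lower). Of 138 tested genes lower in S37F, 15 were higher and 22 lower with CHIR99021, and of 52 higher ones 5 and 11. *Trpm1* was higher in both contrasts (2.72 and 3.39 on the log2 scale), as in S37F.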

How the data were processed

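RNA of 25 libraries was sequenced by mcSCRB-seq, a bulk method that tags transcript 3′ ends with unique molecular identifiers. Per the labels and the study's methods, the authors trimmed, deduplicated and aligned reads to mm10 with STAR and deposited raw counts per gene from featureCounts (2.0.1), for 48440 genes; annotation release and strand setting are not given in the sources used here. Symbols were found for 48058 identifiers. The members and gene lists were chosen with earlier results of these data known.

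Counts were tested with edgeR (4.0.16, R 4.3.3) by quasi-likelihood F-tests after TMM scaling, over the 15 clones with S37F, the other codon 37 clones together and each further mutation as groups, on 10390 genes passing filterByExpr (minimum count 10), and Benjamini-Hochberg adjusted p under 0.05. Single clones were tested with each codon 37 clone as a group of its own. CPM are counts scaled to the library total. Named genes are the 12 largest changes each way among called genes with a mean of 10 CPM or more and no overlap; list genes are named as well. A few genes are not reported here. Genes from lists marked as made after values were seen, genes outside both, and the motifs were chosen after their values were seen. The fits were first tested on simulated counts with known changes. For S37F against the others, 81% of 2-fold and 25% of 1.5-fold changes were recovered. Of the calls, 6.36% and 10.7% were false. With no change put in, 0 genes were called. For G1 against H2, 28% of 2-fold and 87% of 4-fold changes were recovered, with 3.45% and 10.3% of calls false. Coordinates and overlaps are from GENCODE vM21, promoters from RefSeq. DESeq2 (1.42.0), other filters and scalings, and fits without 1 library were alternatives.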

Additional observations from a re-analysis of the deposited data

How the results depend on the processing

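For S37F against S37A, S37C and S37Y, 196 genes passed. The number was 443 in a fit of the 5 codon 37 clones alone, 541 with all 25 libraries in the fit, 74 with DESeq2 (10 higher and 64 lower), 507 with no filter on low counts (198 higher and 309 lower), 12 at an adjusted p under 0.01, 479 with T41I clone A6 left out of the fit and 0 with G1 and S37Y left out. Leaving out 1 codon 37 clone gave 9 to 98, the lowest without S37F clone H2, where 6 genes were higher and 3 lower. No named gene or list gene that was called changed sign under these alternatives. The lack of overlap between the sets in every called gene largely fixed this in advance.

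For G1 against H2, 1 gene passed, 0 with DESeq2, 41 with no filter and 0 after thinning to the smallest library. For H2 against the other 4 the number was 0, 1 with DESeq2 and 98 with no filter. For G1 it was 2, 0 with DESeq2 and 108 with no filter. It was 15 for S37A and 13 for S37C with no filter, and for S37Y 2 with RLE scaling and 92 with no filter. T41I A6 against B9 gave 118 with no filter. T41A and T41I against T41N and T41S gave 1172 with DESeq2. CHIR99021 gave 608 with DESeq2 and 678 to 1675 without 1 library, the lowest without the first 0 uM library and 951 without the second 10 uM library.

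With the replicate number as a block, CHIR99021 gave 1551 genes; same-numbered deviations correlated by -0.12 to 0.108 over 10 pairs, so the numbers were not taken as pairing. No paired analysis was possible because S37A, S37C and S37Y carry the number 1 only. Genes at a few CPM were not measurable beyond counting error at these depths.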
